A study of Mus musculus with 6 samples.

Results

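The genes described here are 6 markers of reserve stem cells of the intestinal crypt, Bmi1, Hopx, Lrig1, Mex3a, Tert and Prox1, in mice with and without Arid1a in the gut epithelium. Members were all non-control array probes whose transcript accession belongs to 1 of these 6 genes: 9 of the 56605 probes on the array, which cover 23462 named genes. Bmi1, Lrig1 and Tert had 2 probes each and the others 1. Of the 6 genes, 5 were bright enough to test, on 7 probes, among 13496 genes tested in all. Only Prox1 was too dim.

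RNA came from isolated intestinal crypts, the pockets of the gut lining that hold its stem cells, of mice of mixed strain. All 6 samples carry Arid1a alleles flanked by recombination sites (Arid1a f/f). The 3 control samples carry nothing further, and the 3 knockout samples also carry Villin-Cre, a recombinase driven by the promoter of an intestinal epithelial gene, so cells outside the epithelium keep Arid1a. Arid1a encodes a subunit of the BAF chromatin-remodelling complex. Age and any pooling of animals are not given in the sources used here, and no label states whether each sample is a separate animal. The p-values therefore measure only the spread between these samples, which may be partly technical. From Y-linked transcripts and Xist, 1 control and 2 knockouts read as male, so each group mixes sexes and sex is unbalanced between groups. Each sample was hybridised to 1 single-colour array. The labels of knockout 2 and of control 3 contradict themselves: title and description give the group used here, while source name and genotype give the other group. Controls 1 and 2 and knockouts 1 and 2 were on slide 1, control 3 and knockout 3 on slide 2.

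Reserve stem cells are slowly cycling cells, classically placed just above the crypt base, that can replace the fast-dividing Lgr5-positive stem cells after injury. Bmi1, Hopx, Lrig1 and Tert were each proposed as their marker from lineage tracing, Mex3a marks a slowly cycling fraction of Lgr5-positive cells, and Prox1 marks secretory precursors with stem cell capacity. Several of these transcripts are also found in Lgr5-positive cells or in differentiated secretory cells, so none defines a cell type alone.

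Levels are given throughout as the log2 of a probe's signal over the 75th percentile of its array. Arid1a itself was lower on all knockout arrays. Its level was 3.71, 3.47 and 4.01 in controls 1 to 3 and 2.20, 2.07 and 2.51 in knockouts 1 to 3. The log2 difference, knockout minus control, was -1.47 ± 0.21 (SE, n = 3 per group, limma adjusted p = 0.00733), and both arrays with contradictory labels lay with the group their title gives. Without those 2 arrays it was -1.23 (adjusted p = 0.0979), and with groups taken from source name and genotype -0.18 (adjusted p = 0.999). The share of probes well above background ran from 41.7% to 54.7% across arrays, and such probes are called detected below. No spot was saturated. Markers of the labelled tissue were present, with 17 of 17 crypt base stem cell, 10 of 10 Paneth and 11 of 11 goblet genes that have a probe bright enough to test. So were 13 of 13 enterocyte, 13 of 13 T and intraepithelial lymphocyte and 11 of 12 exocrine pancreas genes, against 1 of 9 fibroblast genes. Over all genes the median log2 difference was -0.01.

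Of the 5 members tested, 1 rose (Bmi1) and 0 fell at an adjusted p under 0.05. Of all genes tested, 14.9% were called, 7.28% higher and 7.62% lower in the knockout, so 1 of 5 is close to the background. The members' median log2 difference was -0.10. They did not move as a group: Bmi1 and Tert had positive differences, Lrig1 and Mex3a negative ones, and Hopx a value near 0. In such bulk RNA, fewer cells that express a gene and less of its RNA per cell cannot be told apart.

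**Figure D1:**
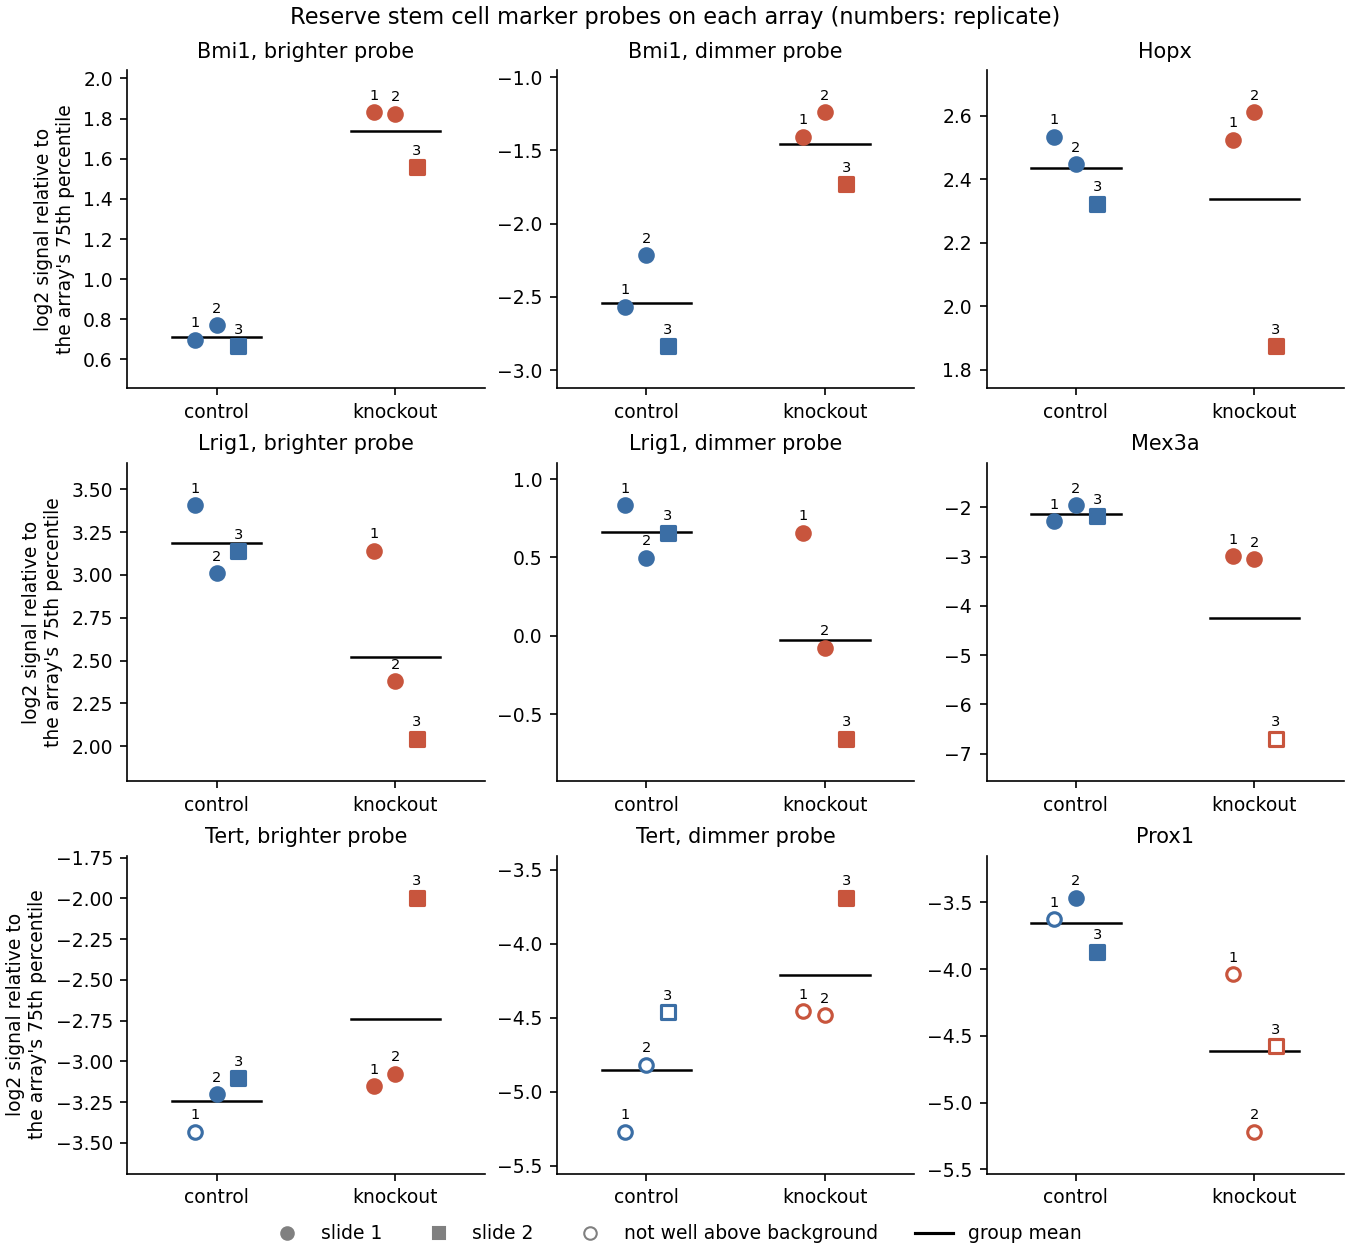
Log2 level of each of the 9 member probes on the 6 arrays, over the 75th percentile of each array, with the replicate number above each point, slide 1 as circles, slide 2 as squares, open symbols for spots not well above background, and bars for group means; vertical axes differ between panels. Both Bmi1 probes separate the groups, while knockout 3 lies apart from the other knockouts for Hopx, Mex3a and the brighter Tert probe.

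The promoter windows of the marker that rose, Bmi1, and of the 2 tested markers with the most negative differences, Lrig1 and Mex3a, are shown so that their base composition can be compared. Each is the 250 bases before the RefSeq start of the gene in build GRCm38.p6, read 5′ to 3′ on the gene's strand. Capitals mark matches on either strand to the E-box CACGTG, the SOX motif AACAAT and the GC box GGGCGG, of which overlapping matches run together.
Bmi1, chr2:18676768-18677017, plus strand: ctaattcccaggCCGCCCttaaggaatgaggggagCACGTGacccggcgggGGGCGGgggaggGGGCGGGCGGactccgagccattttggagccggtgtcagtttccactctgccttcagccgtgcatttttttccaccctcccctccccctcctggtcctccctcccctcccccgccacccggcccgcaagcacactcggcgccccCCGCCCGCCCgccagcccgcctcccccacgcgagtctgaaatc
Lrig1, chr6:94700146-94700395, minus strand: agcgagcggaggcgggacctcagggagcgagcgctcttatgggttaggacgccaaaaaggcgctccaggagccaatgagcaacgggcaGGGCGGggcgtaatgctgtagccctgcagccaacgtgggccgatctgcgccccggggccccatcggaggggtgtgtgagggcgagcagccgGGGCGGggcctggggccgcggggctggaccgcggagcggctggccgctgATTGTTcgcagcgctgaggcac
Mex3a, chr3:88531696-88531945, plus strand: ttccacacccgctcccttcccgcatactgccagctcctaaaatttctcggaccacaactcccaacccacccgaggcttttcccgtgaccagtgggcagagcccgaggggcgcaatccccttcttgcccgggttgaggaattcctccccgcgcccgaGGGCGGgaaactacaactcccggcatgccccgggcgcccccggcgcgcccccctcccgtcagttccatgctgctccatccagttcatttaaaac

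These windows hold 70.4% (Bmi1), 71.6% (Lrig1) and 64.0% (Mex3a) G and C, against a median of 52.4% over 32851 RefSeq promoter windows of the same length. They hold 21, 26 and 19 CpG dinucleotides, against a median of 6. The Bmi1 window has 6 GC boxes and 1 E-box at position -215 from the gene's start. GC boxes occur in 32.7% of all such windows and the E-box in 6.0%. The Lrig1 window has 2 GC boxes and 1 SOX motif, a motif found in 9.4% of windows, and the Mex3a window has 1 GC box. No TCF/LEF motif (ATCAAAG, in 3.2% of windows) was found in these 3 windows. A match describes the letters only, and binding was not measured.

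Bmi1 is a RING-finger protein of the Polycomb repressive complex PRC1, in which it supports the ubiquitination of histone H2A, and it is known for keeping the Cdkn2a locus silent in stem cells. Its brighter probe (A_55_P2505621, chromosome 2) read 0.70, 0.77 and 0.67 in controls 1 to 3 and 1.83, 1.82 and 1.56 in knockouts 1 to 3. Every knockout array lay above every control array, with a gap wider than the range of either group. Bmi1 rose by 1.03 ± 0.15 on the log2 scale (SE, 95% confidence interval 0.66 to 1.39, limma adjusted p = 0.00915), which is 2.04-fold. A non-overlap with the knockout above was seen for 19% of all genes tested.

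The dimmer Bmi1 probe (A_51_P121547) gave nearly the same difference. It read -2.57, -2.22 and -2.84 in controls and -1.41, -1.24 and -1.73 in knockouts, again without overlap. On this probe Bmi1 rose by 1.08 ± 0.23 (SE, adjusted p = 0.0335 in the fit over all 26746 probes kept, of which 10.3% were called). Within slide 1 the brighter probe differed by 1.09 and within slide 2 by 0.89, and the dimmer probe by 1.07 and 1.11.

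The call on Bmi1 held when any 1 of the 6 arrays was left out, with log2 differences from 0.98 to 1.12 and adjusted p from 0.0116 to 0.0498. Without both arrays of contradictory labels, the difference was 0.96 and the adjusted p 0.139. With groups taken from source name and genotype it was 0.25 (adjusted p = 0.999). Under that grouping 0 of all 13496 genes were called by limma, and 207 had an unadjusted p under 0.05. Scaling to each array's median, which moves the median over all genes to -0.26, gave 0.78 (adjusted p = 0.0552).

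**Figure D2:**
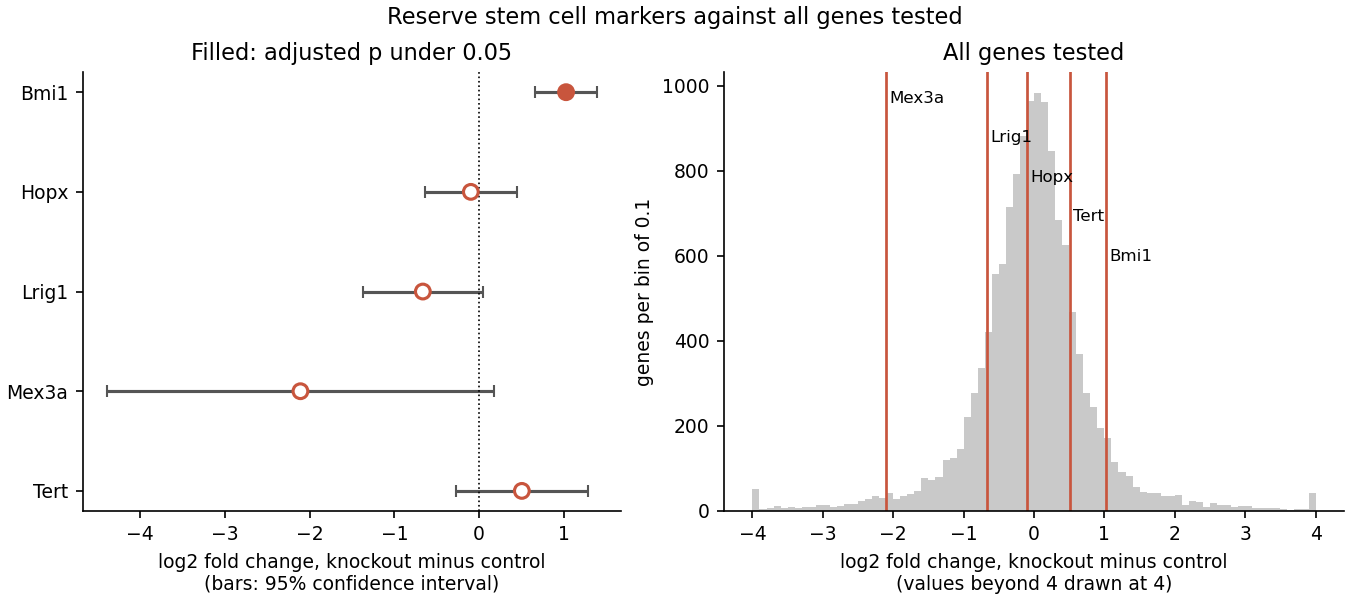
Left, log2 difference, knockout minus control, of the 5 tested members with 95% confidence intervals, filled where the adjusted p is under 0.05. Right, the same 5 values as lines over a histogram of all 13496 genes tested, in bins of 0.1. Only the Bmi1 interval (0.66 to 1.39) lies clear of 0, and Mex3a has the widest (-4.39 to 0.17).

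Among 18 genes for proteins that join Bmi1 or its paralogs in PRC1 complexes, 4 fell and 1 rose, with a median log2 difference of -0.27. Over all genes tested, 7.62% fell and 7.28% rose. Those 4 that fell are Cbx genes, which encode the chromodomain subunits that read trimethylated histone H3. Cbx7 fell by 1.83 ± 0.18 (SE, adjusted p = 0.00243), from -0.06, -0.36 and -0.28 in controls to -1.93, -2.33 and -1.93 in knockouts. Cbx2 fell by 2.5 ± 0.39 (adjusted p = 0.0105) and Cbx8 by 0.91 ± 0.16 (adjusted p = 0.0164). Cbx6, well above background on 2 of 3 knockout arrays, fell by 3.61 ± 0.50 (adjusted p = 0.00715). On a second probe Cbx6 fell by 3.03. Every one of these 4 had all knockout arrays below all control arrays, opposite in direction to Bmi1. That separation was seen for 20.7% of all genes tested.

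Outside the Cbx genes, Kdm2b differed by -1.46 ± 0.39 (adjusted p = 0.0512), more than Cbx8, without passing. All knockout arrays lay below all control arrays for Kdm2b, Pcgf6 (-0.63), Rybp (-0.59), Phc1 (-0.53) and Phc2 (-0.27). Of the 18 genes, 11 had negative and 7 positive differences. The catalytic and paralogous subunits showed smaller differences than the Cbx genes that fell. Ring1, an E3 ligase of the complex, differed by -0.16 ± 0.17, and its paralog Rnf2 by 0.23 ± 0.22 on its brightest probe and by 0.58 and -0.05 on the others. Pcgf2, the closest paralog of Bmi1, differed by 0.08 ± 0.21, a sign that turned with array-median scaling (-0.17) and quantile normalization (-0.04). Pcgf3, a paralog found in variant PRC1, rose by 0.82 ± 0.21 (adjusted p = 0.0466). The Pcgf3 call was lost without control 1, 2 or 3 or knockout 2 or 3 (adjusted p 0.0752 to 0.163) and with array-median scaling (0.135). It was also lost with sex as a block (0.0753), on slide 1 alone (0.130), with no filter (0.149) and without both arrays of contradictory labels (0.204). Without both arrays of contradictory labels, 2 of the 18 genes fell, Cbx6 and Cbx7, and 0 rose. The Cbx8 call was also lost without control 1 (0.0694), control 3 (0.0588) or knockout 2 (0.0545), on slide 1 alone (0.0924) and with no filter (0.0759).

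Cdkn2a encodes the cell cycle inhibitors p16Ink4a and p19Arf, the best known targets of Bmi1. It was higher on every knockout array, at -2.31, -1.95 and -2.24, than on the control arrays, at -5.28, -4.62 and -4.93. No control array was well above background, which leaves a bound: knockout Cdkn2a was at least 3.05-fold higher. The bound sets the knockout mean against the dimmest detected probe of each control array, or against the Cdkn2a probe's own signal where that is higher. Cdkn2a entered the test through the knockout arrays alone, so its fitted log2 difference of 2.78 ± 0.22 (adjusted p = 0.00104, group means of -4.94 and -2.17) rests on control values below background. It was 1.61 with dim signals raised to each array's floor, an alternative chosen after seeing the data. With the normexp background correction it was 0.98, which is under the bound. That correction adds an offset of 50 to every signal, which draws dim signals together, so this value does not test the bound. A second Cdkn2a probe, undetected on every array, differed by -0.18. Which of the overlapping Cdkn2a transcripts the probes read was not analysed here. Cdkn2b, the neighbouring inhibitor gene, differed by -0.34 ± 0.20 (adjusted p = 0.271), with overlapping groups.

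**Figure D3:**
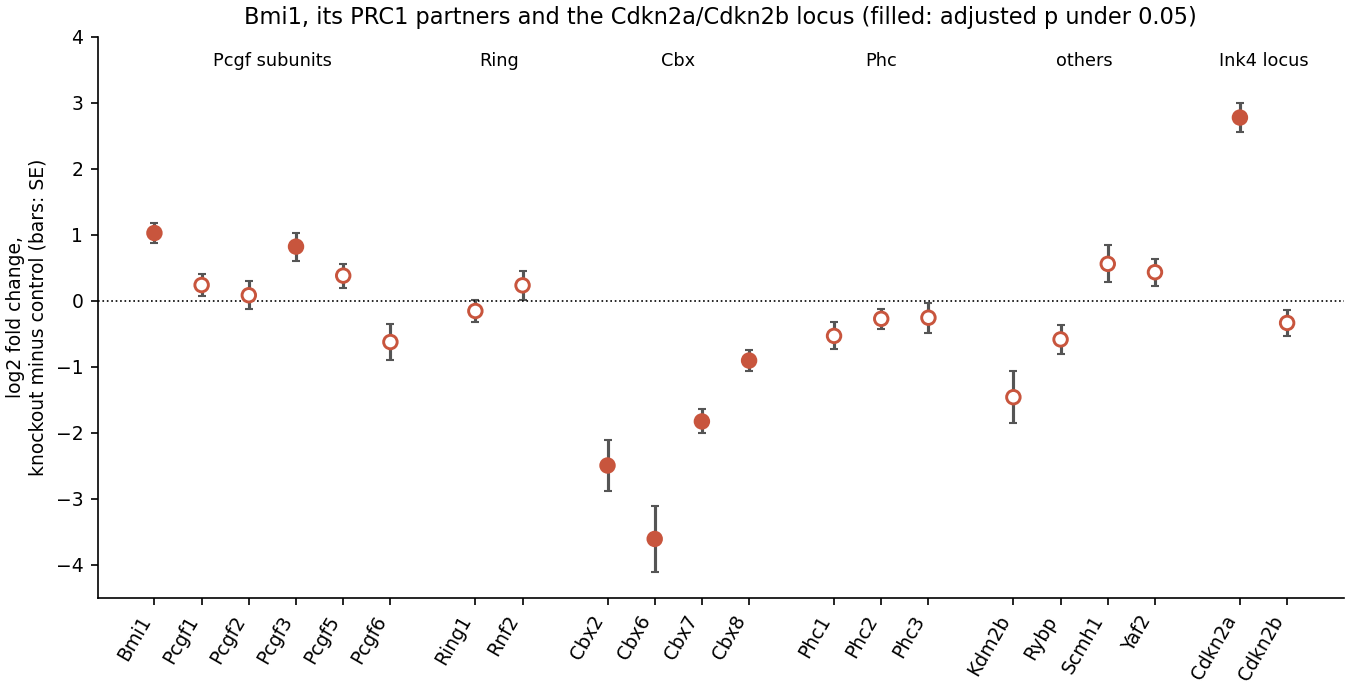
Log2 difference, knockout minus control, with SE bars (n = 3 per group) for Bmi1, 18 genes of PRC1 subunits and the Cdkn2a and Cdkn2b genes, filled where the adjusted p is under 0.05. The 4 Cbx genes lie between -0.91 and -3.61, below Bmi1 at 1.03. The Cdkn2a point at 2.78 rests on control signals that were not well above background.

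Hopx encodes a small homeodomain protein that does not bind DNA and acts through partners such as Srf and Hdac2. Its probe (A_55_P2011286, chromosome 5) read 2.53, 2.45 and 2.32 in controls and 2.52, 2.61 and 1.87 in knockouts. Knockouts 1 and 2 lay among or above the controls, and knockout 3 lay below all of them. The log2 difference was -0.10 ± 0.23 (SE, 95% confidence interval -0.64 to 0.45, adjusted p = 0.786). It was 0.08 within slide 1 and -0.45 within slide 2, and 0.13 without knockout 3, so its sign rests on that array. The interval leaves room for a difference in either direction.

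Of 4 genes for Hopx partners, 0 passed the test by limma (1 fell with slide as a block, with array-median scaling, with array weights or without knockout 1) and 1 had an unadjusted p under 0.05 (34.2% of all genes did), with a median of 0.02. That gene was Hdac2, a histone deacetylase, at -1.06 ± 0.32 (adjusted p = 0.0700) on a probe well above background on 2 of 3 knockout arrays. Srf differed by -0.20, Gata4 by 0.37 and Gata6, a further regulator of gut epithelium, by 0.24. The alternatives under which 1 partner fell called 14.4% to 35.3% of all genes tested.

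Lrig1 encodes a transmembrane protein that dampens signalling by receptors of the ErbB family, and it marks a broad set of crypt stem cells. The brighter probe (A_51_P116137, chromosome 6) read 3.41, 3.01 and 3.14 in controls and 3.14, 2.38 and 2.04 in knockouts. Knockout 1 lay within the control range and knockouts 2 and 3 below it. The log2 difference was -0.66 ± 0.30 (SE, 95% confidence interval -1.38 to 0.05, adjusted p = 0.166). The dimmer probe (A_55_P2744324) read 0.83, 0.50 and 0.66 in controls and 0.66, -0.08 and -0.66 in knockouts. This gave -0.69 ± 0.33 (adjusted p = 0.205 over all probes), so both probes showed the same order among the knockouts.

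Without knockout 1, Lrig1 passed the test (-0.97 ± 0.20, adjusted p = 0.0201), and leaving out knockout 3 gave -0.43 (adjusted p = 0.366). Array weights also took it past the threshold (-0.80, adjusted p = 0.0326). The fit without knockout 1 called 29.8% of all genes, and the fit with array weights 35.3%. The within-slide differences of the brighter probe were -0.45 on slide 1 and -1.09 on slide 2.

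Among 6 tested genes of Lrig relatives and growth factor receptors, 0 passed by limma and 3 had an unadjusted p under 0.05, with a median of -0.07. Lrig3 differed by -0.84 ± 0.26 (adjusted p = 0.0729), with all knockout arrays below all control arrays, and passed with array-median scaling (0.0444), with array weights (0.0155) and without knockout 3 (0.0490). Lrig2 differed by -0.33 ± 0.16 on its brighter probe and by 0.15 on the other. Egfr, the receptor Lrig1 is best known to restrain, differed by 0.47 ± 0.17 (adjusted p = 0.116), and its other 2 probes by 0.48 and 0.83. The last of these passed in the fit over all probes (adjusted p = 0.0421). Met, the receptor for hepatocyte growth factor, differed by 0.40, Erbb2 by -0.10 and Erbb3 by -0.03.

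Mex3a encodes an RNA-binding protein with KH domains. Its probe (A_52_P706060, chromosome 3) was dim, at -2.29, -1.95 and -2.18 in controls and -3.0, -3.05 and -6.70 in knockouts. Every knockout array lay below every control array, a separation seen for 20.7% of all genes. Knockout 3 was not well above background, and its signal of 1.97 lay under 7.92, the dimmest detected signal on that array. The log2 difference was -2.11 ± 0.96 (SE, 95% confidence interval -4.39 to 0.17, adjusted p = 0.170).

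The size for Mex3a rests on knockout 3. Without that array it was -0.88 ± 0.18 and passed the test (adjusted p = 0.0354). With dim signals raised to the floor it was -1.44 ± 0.45 (adjusted p = 0.0723). With the normexp background correction, whose offset of 50 draws dim signals together, it was -0.37 (adjusted p = 0.15). Within slide 1 the difference was -0.90 and within slide 2 -4.52.

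Of 3 tested Mex3 paralogs, 1 fell, where 7.62% of all genes did. Mex3d fell by 1.55 ± 0.30 (adjusted p = 0.0210), from 0.21, -0.12 and 0.23 in controls to -0.88, -1.41 and -2.03 in knockouts. The Mex3d call was lost without control 1, 2 or 3 or knockout 2 (adjusted p 0.0593 to 0.0824) and without both arrays of contradictory labels (0.183). It was also lost on slide 1 alone (0.0921) and with no filter (0.0683). Mex3c was above the controls on all knockout arrays but did not pass (0.43 ± 0.20, adjusted p = 0.177). Mex3b differed by -0.28 ± 0.28 and by 0.09 with normexp and its offset.

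Tert encodes the catalytic subunit of telomerase, the enzyme that extends chromosome ends. Its brighter probe (A_51_P433778, chromosome 13) was near the detection limit, at -3.43, -3.20 and -3.11 in controls and -3.15, -3.08 and -2.0 in knockouts. Control 1 was not well above background. The 2 lower knockouts lay within or just above the control range and knockout 3 about a log2 unit higher. The log2 difference was 0.50 ± 0.33 (SE, 95% confidence interval -0.27 to 1.28, adjusted p = 0.307), and leaving out knockout 3 gave 0.13 (adjusted p = 0.670). The dimmer probe (A_55_P2745082) was well above background on knockout 3 only and was not tested. It read -5.27, -4.82 and -4.46 in controls and -4.46, -4.48 and -3.69 in knockouts, a difference of 0.64.

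Genes for the rest of telomerase and for telomere proteins had negative differences in 13 of 17 cases, where 50.8% of all genes did. By limma 0 passed the test and 6 had an unadjusted p under 0.05, a share close to the 34.2% of all genes. With slide as a block 1 fell and 1 rose. Their median was -0.37. Gar1 and Dkc1, proteins of the particle that holds telomerase RNA, differed by -0.91 (adjusted p = 0.127) and -0.79 (adjusted p = 0.154). Pot1a, a protein of the telomere cap, differed by -0.72 (adjusted p = 0.104) and Ten1 by -0.62 (adjusted p = 0.114). Both had all knockouts below all controls, as had Terf1 (-0.59) and Terf2ip (-0.21). Tinf2, another cap protein, had 0.52 (adjusted p = 0.0906) and Tep1, a telomerase-associated protein, 0.42 (adjusted p = 0.0923), each with all knockouts above all controls. Of all genes tested, 20.7% separated with the knockouts below and 19% with the knockouts above. Without knockout 1, 8 of the 17 fell, in a fit where 2319 of all 13496 genes did.

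Prox1 encodes a homeodomain transcription factor found in endocrine and tuft precursors of the crypt and in lymphatic endothelium. Its probe (A_66_P101490, chromosome 1) read -3.63, -3.47 and -3.87 in controls and -4.04, -5.22 and -4.58 in knockouts. Only controls 2 and 3 were well above background, so it was not tested. Knockouts lay below controls without overlap, a separation seen for 20.7% of all genes tested. No knockout array was well above background, which leaves a bound: knockout Prox1 was at least 1.19-fold lower. The control mean in this bound includes control 1, itself not well above background, so the bound is not strict. The group means were -3.65 and -4.61. With no filter on dim probes, the difference was -0.96 ± 0.34 (adjusted p = 0.208), which rests on knockout values not well above background. Its paralog Prox2 was well above background on at most 2 arrays.

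Among markers of the cells known to hold Prox1, enteroendocrine genes had calls in both directions and tuft cell genes had lower ones. Of 16 tested enteroendocrine markers, 2 rose and 1 fell, with a median of -0.24. Over all genes tested, 7.28% rose and 7.62% fell. Sct (secretin) rose by 1.0 ± 0.22 (adjusted p = 0.0310) and Pax4, a factor of endocrine precursors, by 2.0 ± 0.51 (adjusted p = 0.0459), while Nkx2-2, well above background on 3 of the 6 arrays, fell by 1.32 ± 0.34 (adjusted p = 0.0470). These calls depended on scaling and on single arrays. With array-median scaling 0 rose and 3 fell, on slide 1 alone 0 rose and 1 fell, and with slide as a block 1 rose and 0 fell. No endocrine marker was called without control 1, 2 or 3 or without both arrays of contradictory labels, where 4 had an unadjusted p under 0.05 by limma. The summed linear level of the endocrine list, relative to the 75th percentile, was 197 to 223 in controls and 195 to 323 in knockouts. Of 9 tested tuft cell markers 2 fell, Alox5ap and Alox5, with a median of -1.03, and the summed level was 11.8 to 17.8 in controls and 5.64 to 9.999 in knockouts. With array-median scaling 7 tuft markers fell, where 1389 of all 13496 genes did. The number was 4 on slide 1 alone (370 of all genes) or without knockout 3 (789), and 1 without any 1 control or knockout 2. It was 0 without both arrays of contradictory labels, where 3 had an unadjusted p under 0.05 by limma. Of 6 lymphatic endothelial markers, Lyve1 alone was tested and it rose by 4.64 ± 0.42 (adjusted p = 0.00174). The other 5, Flt4, Pdpn, Ccl21a, Reln and Mmrn1, were undetected on all 6 arrays. The part of these cells in the Prox1 values was not tested.

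Other genes reported for reserve or injury-responsive crypt cells were read from a list of 15, of which 14 were tested. Of these 14, 5 fell and 0 rose, with a median of -0.46, where 7.62% of all genes fell and 7.28% rose. Differences were negative for 9 and positive for 5, the largest Ly6a at 0.80 (limma adjusted p = 0.152). Fgfbp1, a carrier of fibroblast growth factors, fell by 3.09 ± 0.35 (adjusted p = 0.00362), from 2.99, 2.54 and 2.67 in controls to 0.35, -0.39 and -1.01 in knockouts. Cd24a, a surface protein of secretory and stem cells, fell by 1.51 ± 0.29 (adjusted p = 0.0195), and Atoh1, the master factor of secretory cells, by 1.02 ± 0.20 (adjusted p = 0.0207). Msi2, an RNA-binding protein, fell by 0.66 ± 0.17 (adjusted p = 0.0436), though a second probe differed by 0.10. Krt15, a keratin of long-lived crypt cells, fell by 2.19 ± 0.56 (adjusted p = 0.0461), with 1 of 3 knockout arrays well above background.

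Of the 5 that fell, only Fgfbp1 was called without any 1 of the arrays. With sex as a block, Msi2 (adjusted p = 0.0762) and Krt15 (0.0845) lost their call. The number that fell was 1 without control 1, 2 without control 2, control 3 or knockout 2, and 0 without both arrays of contradictory labels, where 6 had an unadjusted p under 0.05. Sox9, a factor of crypt progenitors, differed by -1.73 ± 0.74 (adjusted p = 0.15), at 1.72, 1.16 and 0.37 in controls and 0.66, -0.35 and -2.25 in knockouts, and its second probe by -0.77. It passed with slide as a block (0.0424), with array weights (0.0421) and without knockout 1 (0.0418). Krt19, a keratin used in lineage tracing of radiation-resistant crypt cells, differed by 0.07 and Clu, which marks revival stem cells, by 0.35 ± 1.08. Clu read -1.67, -1.82 and -1.48 in controls and -3.51, 1.23 and -1.64 in knockouts, so the knockouts lay on both sides of the controls.

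For the fast-dividing crypt base stem cells, 5 of 17 tested markers fell and 0 rose, with a median of -0.99. Over all genes tested, 7.62% fell and 7.28% rose. Differences were negative for 14 of the 17 and positive for 3, the largest Cd44 at 0.83 (limma adjusted p = 0.103). Those that fell were Nkd1 (at least 2.33-fold lower), Prom1, Ascl2, Rgmb (well above background on 1 of 3 knockout arrays) and Axin2. Nkd1 and Axin2 are examples of Wnt targets among them. Ascl2, the master factor of these cells, fell by 3.09 ± 0.57 (adjusted p = 0.0181). Lgr5, their defining receptor, differed by -2.24 ± 0.82 (adjusted p = 0.110), at 0.49, 0.14 and 0.08 in controls and -0.04, -2.38 and -3.59 in knockouts. The number that fell was 2 without control 1, control 3 or knockout 2, and 3 without control 2. It was 10 without knockout 1, where 2319 of all 13496 genes fell, or with array-median scaling, where 1389 did. It was 8 with slide as a block (1266 of all genes), 3 on slide 1 alone (370), and 1 without both arrays of contradictory labels (143). Whether this list differs from the reserve markers was not tested.

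The markers varied among the knockout arrays in different ways. Bmi1 deviated from the control mean by 1.12, 1.11 and 0.85 in knockouts 1 to 3, a narrow range on this scale. Before scaling, signals of the brighter Bmi1 probe were 1038, 731 and 602 in knockouts 1 to 3 and 479, 476 and 460 in controls 1 to 3. Lrig1 deviated by -0.04, -0.81 and -1.14, an order shared with the crypt base list (-0.56, -1.12 and -1.81) and with 21 proliferation genes (0.03, -0.90 and -1.21). Mex3a deviated by -0.86, -0.91 and -4.56, and the Paneth cell list by -1.08, -1.39 and -2.85. Tert deviated by 0.09, 0.17 and 1.25, and Hopx by 0.09, 0.18 and -0.56, so knockout 3 was the array farthest from the controls for both. Of 21 proliferation genes 0 passed by limma, 9 were under 0.05 by unadjusted p and 20 were negative. Without knockout 1, 15 of the proliferation genes fell, in a fit where 2319 of all 13496 genes did. Of 10 Paneth genes 5 fell and 1 rose, where 7.62% of all genes fell and 7.28% rose. Their summed level was 2466 to 2639 in controls and 1140 to 1964 in knockouts. The number of Paneth genes that fell was 0 without control 1 or 2 and 1 without control 3 or knockout 2. Without both arrays of contradictory labels 0 fell and 0 rose by limma, and 6 had an unadjusted p under 0.05. The rise was lost with array-median scaling, with quantile normalization and on slide 1 alone. The part of these cells in the Lrig1 and Mex3a values was not tested.

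**Figure D4:**
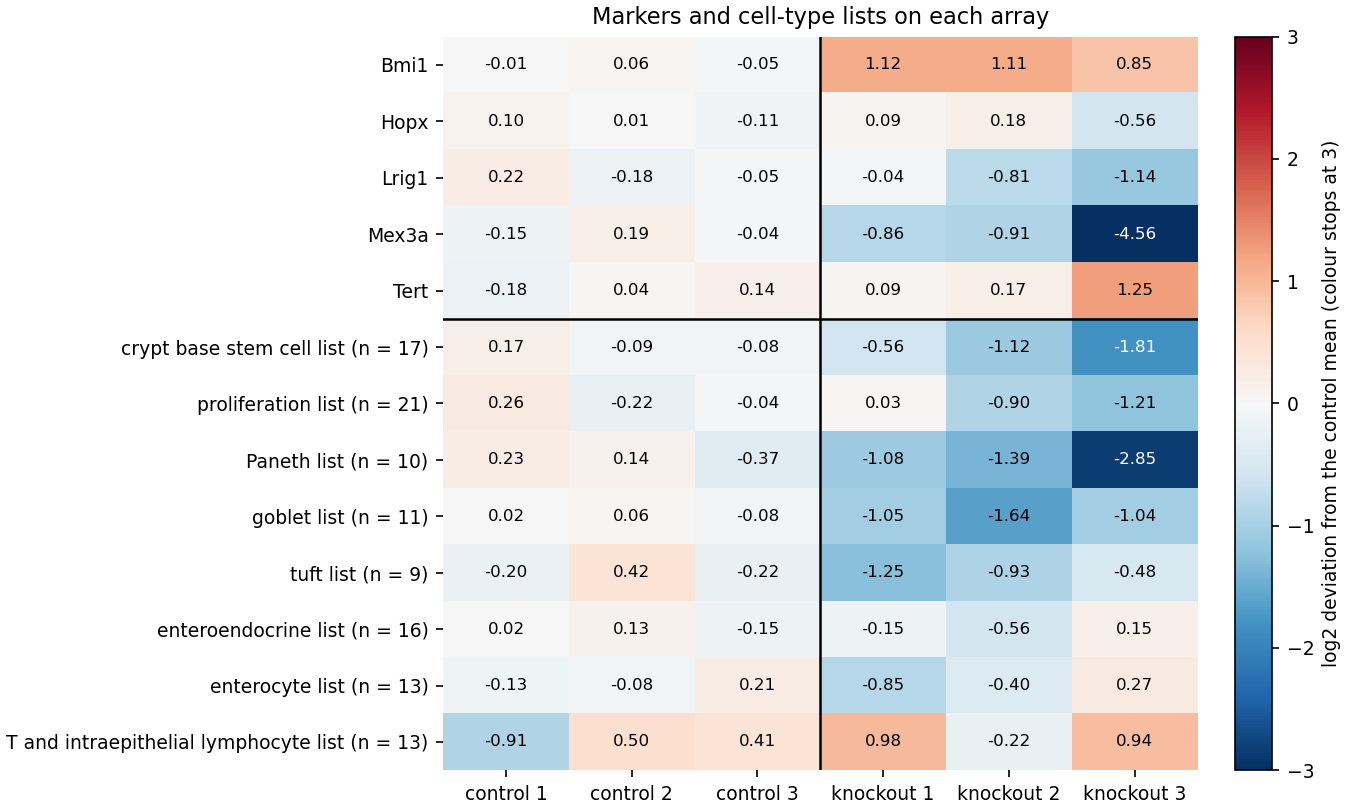
Log2 deviation from the control mean on each array for the 5 tested members and, as the mean over the tested genes of each list, for 8 cell type or cell state lists, with the colour scale ending at 3. On this scale Bmi1 is raised by 0.85 to 1.12 in the 3 knockouts, while Lrig1, Mex3a and the crypt base, proliferation and Paneth lists are lowest in knockout 3.

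The genes with the pattern most like each member over the 6 arrays were found by Pearson r among 12616 named genes, as a description without a test, since all share the same arrays. For Bmi1 they were Derl2 (r = 0.998), Cbwd1 (0.998) and Zbp1 (0.997), and 318 genes, 2.52%, had r above 0.95. Zbp1, a sensor of Z-form nucleic acid, rose by 1.17 ± 0.15 (adjusted p = 0.00515), while Derl2 (0.42) and Cbwd1 (0.41) did not pass. For Lrig1 they were Tamm41 (0.999), Fbl (0.998) and Hcfc1 (0.998), and 842 genes, 6.68%, had r above 0.95, so its pattern was a common one.

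For Mex3a the closest genes were the alpha-defensins Defa3 (0.996), Defa24 (0.995) and Defa23 (0.995), antimicrobial peptides of Paneth cells. Their near-identical sequences may share signal between probes, and they differed by -1.59, -1.08 and -1.57 without passing. For Hopx they were Dennd4a (0.998), Bag1 (0.983) and Jrk (0.981), and for Tert Tmlhe (0.9997), Eno3 (0.986) and Ttll8 (0.985). The patterns of Mex3a, Hopx and Tert are set largely by knockout 3, and 79, 35 and 26 genes had r above 0.95 with them.

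**Figure D5:**
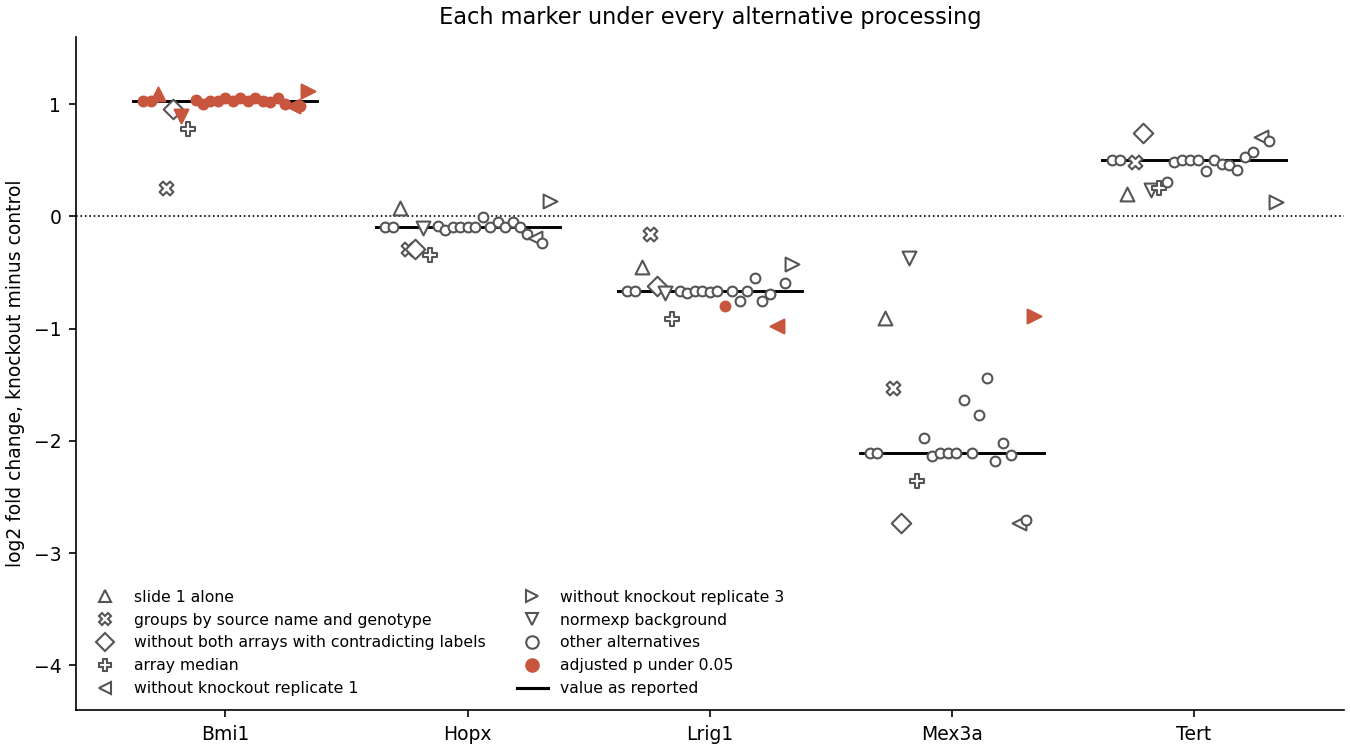
Log2 difference, knockout minus control, of the 5 tested members under each processing alternative, with the reported value as a line and filled symbols where the adjusted p is under 0.05. Bmi1 stays between 0.25 and 1.12 and Hopx straddles 0, while Mex3a ranges from -2.74 to -0.37.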

How the data were processed

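Total RNA from isolated crypts was made into Cy3-labelled cRNA for Agilent arrays, per the labels. Spot intensity was extracted by the authors with Feature Extraction software of Agilent. Its version is 12.0.3.1 in the headers of the files, while the submitters' processing notes name 11.5.1.1. The processed intensity is background-subtracted and not scaled between arrays, per the file headers. Log2 values in a series table the authors deposited matched these on the 75th percentile scale, centred on each probe's median, with column medians of 0.196, 0.0610 and -0.325 (controls 1 to 3) and -0.0717, 0.216 and -0.184 (knockouts 1 to 3). It served as an alternative.

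Control and outlier-flagged spots were left out, spots of a probe averaged, and log2 intensity taken minus each array's 75th percentile (signals of 279 to 295 in controls and 205 to 292 in knockouts). Accessions without versions were matched to RefSeq genes (GRCm38.p6), which named 33767 of 56605 probes and not 22838. All coordinates are of GRCm38.p6 and only for RefSeq windows, since the array's own build differs. Probes detected (flagged well above background) on 3 or more of the 6 arrays were kept (26746), and the probe of highest mean stood for a gene (4726 genes had several). limma 3.58.1 (R 4.3.3) was fitted over all genes with a single group term and eBayes, two-sided, with adjustment after Benjamini and Hochberg, and again over all probes. The fits were tested on simulated data. The number of arrays limits the precision.

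Members, gene lists and the naming rule were chosen with earlier results of these data known. Genes named are the members and their close relatives, Arid1a, Sox9, up to 4 genes with the smallest p per list and the 3 genes most like each member. The others, among them Lgr5, Ring1, Rnf2, Cbx8, Pcgf3, Krt15, Krt19, Clu, Axin2, Gar1 and Dkc1, were chosen after their values were seen. A gene of 1 list is not reported here. Alternatives covered grouping, blocks, background, scaling, filter, probe choice, variance model, weights, source of values, thresholds and each array left out.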

Additional observations from a re-analysis of the deposited data

How the results depend on the processing

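Of the alternatives run, Bmi1 kept its direction in all 25 and its call in 22; the 3 exceptions were groups by source name and genotype (0.25), without both arrays of contradictory labels (0.96) and array-median scaling (0.78), where 0 members were called. Mex3a and Tert kept a difference below and above 0 in their 24, and Lrig1 below 0 in its 25. In several alternatives the direction could not turn, so these counts overstate how far it was tried. Blocks by replicate or slide, the filters, the variance model and the thresholds left each tested member's difference as reported. The deposited table gave nearly the same values. Hopx turned positive on slide 1 alone (0.078) and without knockout 3 (0.13). Array weights called 2 members (Lrig1 at -0.80). With each array left out in turn, the members called ranged from 1 to 2, Lrig1 from -0.97 to -0.43, Mex3a from -2.74 to -0.88 and Hopx from -0.24 to 0.13.

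The genes called, 2011 in the reported fit, were 0 with groups by source name and genotype, 320 without both arrays of contradictory labels, 689 on slide 1 alone, 697 with no filter, 1339 with sex as a block (1 control and 2 knockouts read as male), 4766 with array weights, 3445 at an adjusted p under 0.1 and 513 under 0.01. Array-median scaling called 560 higher and 1389 lower, against 982 and 1029. With each array left out the genes called ranged from 638 to 4023. The probes called, 2766 as reported, were 589 on slide 1 alone, 5510 at 0.1 and 632 at 0.01, and ranged from 814 to 5502 with each array left out. The cause of these changes was not tested.

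With the replicate number as a block, 2731 genes and 3979 probes were called and 1 member, Bmi1; it changed no member's call. Of the lists, it called 9 crypt base genes lower and 1 higher, and lower 4 proliferation, 2 telomere, 1 Hopx partner and 1 Lrig relative gene (Lrig3, adjusted p = 0.0483), and Sox9 passed (0.0300). Deviations from group means correlated at 0.246, 0.0797 and 0.352 between same-numbered samples, each sample's best match among the other group, a hint from the data and not from the design. The pair at 0.352, control 3 and knockout 3, were the only arrays on slide 2, so number and slide cannot be told apart for them. The replicate block also separates the slides. Deviations within a group are tied to their mean, so these correlations are not independent. The filter for probes well above background on all 6 arrays left Mex3a and Tert untested. Signals of Mex3a, Tert and Prox1 lay near background, which limits the precision of their differences.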
